A study of Rattus norvegicus with 9 samples.

Results

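The miR-17~92 and miR-106b~25 clusters are polycistronic miRNA genes, in which several hairpins are cut from one primary transcript. Their members were taken as every rat entry of the annotated small RNA reads whose name has the stem mir-17, mir-18a, mir-19a, mir-20a, mir-19b or mir-92a (the miR-17~92 cluster), or mir-106b, mir-93 or mir-25 (the miR-106b~25 cluster). All read forms were kept, including the * strand, the less abundant arm of a hairpin as miRBase named it. These 9 entries of 292 rat entries held 879 of the 31220 different rat sequences and 93219 reads, 1.49% of the rat reads. Small RNA was sequenced from the left ventricular free wall of 3 untreated male Sprague-Dawley rats aged 8 months, called hearts 6, 7 and 8. Each wall was cut into epicardium, mid-myocardium and endocardium, and every layer of each heart gave 1 library, so that there were 9 libraries with 3 per layer. The layers are pieces of tissue and not sorted cells, so fewer cells of a type and less RNA per cell cannot be told apart. Levels are given in RPMM, reads per 1000000 annotated reads of the library.

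Members of both clusters fall into families by their seed, bases 2 to 8 of the mature miRNA, which carries most of the pairing with target mRNAs. The clusters are known for promoting cell proliferation and limiting apoptosis, miR-17~92 being amplified in B cell lymphomas and needed for normal heart and lung development, while miR-92a restrains the growth of new blood vessels. The miR-106b~25 hairpins lie within Mcm7, a gene for a subunit of the replicative DNA helicase, and a paralogous cluster, which includes miR-106a and miR-363, lies on the X chromosome. On the GRCr8 build in RefSeq the 6 hairpins of miR-17~92 span chr15:98587848-98588632 on the plus strand, with no other gene listed there. The 3 hairpins of miR-106b~25 span chr12:22156641-22157134 on the minus strand, inside the span of the protein-coding gene Mcm7. The 5 hairpins of the X cluster span chrX:137342777-137343647 on the minus strand.

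The mature sequences of all 9 members were matched in RefSeq and are shown to make the families visible, with the seed in capitals.
miR-17: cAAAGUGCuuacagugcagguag
miR-20a: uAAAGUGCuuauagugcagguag
miR-93: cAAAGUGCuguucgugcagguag
miR-106b: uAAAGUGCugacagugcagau
miR-18a: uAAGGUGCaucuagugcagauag
miR-19a: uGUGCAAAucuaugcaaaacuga
miR-19b: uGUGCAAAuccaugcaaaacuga
miR-92a: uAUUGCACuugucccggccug
miR-25: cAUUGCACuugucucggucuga
miR-17, miR-20a, miR-93 and miR-106b share a seed, as do miR-19a and miR-19b, and miR-92a and miR-25, while miR-18a has its own. Counting positions from 1 at the first base, miR-19a and miR-19b differ only by U11C. miR-92a and miR-25 differ by U1C, C14U and C18U besides 1 nt of length, so reads of these members could be told apart. The mature sequences of miR-17, miR-19b and miR-92a are each also made by a hairpin of the X cluster, whereas miR-18a, miR-19a and miR-20a are made on chromosome 15 alone.

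The 9 libraries held 283991 to 1428025 annotated reads, and 3 reads stood for 2.10 to 10.6 RPMM. Mid-myocardium of heart 6 was the shallowest. All 16 miRNAs taken as markers of cell types had reads in every library. The summed level ran from 54314 to 142808 RPMM for 5 cardiac muscle markers and from 1494 to 2861 RPMM for 2 fibroblast markers. For the smooth muscle markers miR-143 and miR-145 it ran from 91716.9 to 154785 RPMM. It ran from 93800.2 to 228889 RPMM for 3 red cell markers, nearly all of it from miR-486, which is also known from heart and skeletal muscle and has no rat entry of its own here. The endothelial marker miR-126 lay between 10726 and 16108 RPMM, and the leukocyte markers miR-142, miR-223 and miR-150 were read as well, so each layer held RNA of several cell types.

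Most of the reads of both clusters came from miR-92a. Its level was 9980.0, 11826 and 8648 RPMM in epicardium of hearts 6, 7 and 8, 10169, 10536 and 7650.1 RPMM in mid-myocardium, and 12478, 11103 and 10317 RPMM in endocardium. All 9 libraries lay within a narrow range, with a mean of 10301 ± 1485 RPMM (SD, n = 9) that placed miR-92a 18th of the 292 rat entries. miR-92a made up 98.9% ± 0.397 of the reads of miR-17~92 (SD, n = 9). The other 5 members together reached only 113 ± 27.8 RPMM, although all 6 hairpins lie within 785 bp.

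The remaining members of miR-17~92 were rare. miR-19b, of a family known for its part in lymphoma, averaged 53.1 ± 19.9 RPMM (SD, n = 9), and miR-17 averaged 31.0 ± 7.19 RPMM. miR-20a, a close relative of miR-17, averaged 21.5 ± 8.88 RPMM. miR-19a and miR-18a stayed below 10 reads in every library, with 29 and 28 reads over the 9 libraries and means of 3.69 ± 2.03 and 3.44 ± 2.40 RPMM. In mid-myocardium of heart 6 miR-18a had 0 reads, which allows a level of up to 10.6 RPMM.

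In miR-106b~25 the last hairpin of the transcript was also the most abundant. miR-25, which has the seed of miR-92a, was read at 1151, 1444 and 1447 RPMM in epicardium of hearts 6, 7 and 8, 1239, 1654 and 1186 RPMM in mid-myocardium, and 1564, 1891 and 1571 RPMM in endocardium. Its mean of 1461 ± 242 RPMM (SD, n = 9) was 78.1% ± 3.93 of the reads of the cluster. miR-93, of the miR-17 family, averaged 304 ± 54.8 RPMM, and miR-106b averaged 99.8 ± 14.4 RPMM over both arms. The cluster as a whole reached 1865 ± 248 RPMM, against 10414 ± 1475 RPMM for miR-17~92.

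Ordered by mean level, the members ran miR-92a, miR-25, miR-93, miR-106b, miR-19b, miR-17, miR-20a, miR-19a and miR-18a. The ranges over libraries did not overlap between the top 4 members in turn, nor between miR-20a and miR-19a. miR-106b and miR-19b, and miR-19b and miR-17, kept their order in 9 of 9 libraries, although their ranges overlapped. miR-17 lay above miR-20a in 6 of 9 libraries and level with it in mid-myocardium of heart 8. miR-19a lay above miR-18a in 3 of 9 and level with it in endocardium of hearts 6 and 8. Neither pair of neighbours thus differed beyond its spread. By family, counting only reads aligned to the arm that has the seed, miR-92a and miR-25 came to 11740.3 ± 1621 RPMM (SD, n = 9), miR-17, miR-20a, miR-93 and miR-106b to 376 ± 62.6 RPMM, and miR-19a and miR-19b to 56.2 ± 21.0 RPMM. The amount of RNA that a read stands for can differ between miRNAs, since no calibration with known amounts was used here.

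**Figure D1:**
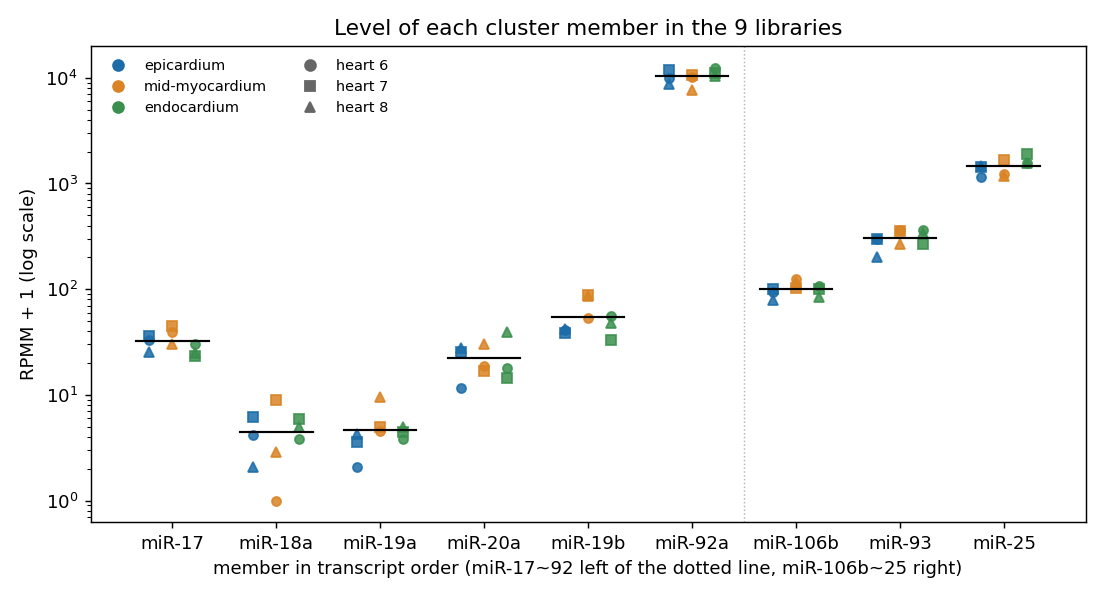
Level of the 9 members in each library, as RPMM + 1 on a log scale, in the order of the hairpins in each transcript; colour gives the layer, symbol the heart and the black line the mean over 9 libraries. miR-92a, with a mean of 10301 RPMM, stands above every other member of its transcript in all 9 libraries, and miR-25 above miR-93 and miR-106b in the other cluster.

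Reads of miR-92a seldom had the mature sequence. The exact mature sequence made up 0.895% ± 0.165 of its reads outside the * strand (SD, n = 9), rank 119 of 125 rat entries counted from the highest share. For miR-25 the same share was 52.5% ± 5.57, and the median of all entries was 29.2%. The hairpins show how the 3′ end of miR-92a differs between its 2 genes, with the 6 nts that follow the mature sequence in capitals.
Mir92a1, chr15:98588602-98588628, plus strand: uauugcacuugucccggccugUUGAGU
Mir92a2, chrX:137342939-137342965, minus strand: uauugcacuugucccggccugAGGAAG
The 4 most common reads of miR-92a are shown with nts found in neither hairpin in capitals, because these 4 forms held most of its reads.
read 1: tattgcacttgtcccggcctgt
read 2: tattgcacttgtcccggcctgtAA
read 3: tattgcacttgtcccggcctgtAT
read 4: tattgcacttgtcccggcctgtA
They made up 25.9% ± 2.42, 23.2% ± 2.25, 19.9% ± 1.81 and 10.6% ± 1.79 of miR-92a reads (SD, n = 9). The mature sequence itself was the 10th most common form, with 712 reads against 20085 for the most common.

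A non-templated 3′ tail, meaning end nts that match no hairpin of the miRNA, was present on 65.4% ± 3.20 of the aligned reads of miR-92a (SD, n = 9). The share ran from 61.3% in mid-myocardium of heart 7 (95% Wilson interval 60.2 to 62.4) to 69.0% in endocardium of heart 6 (68.1 to 70.0). Every library thus lay far above the median of 15.8% over the 103 rat entries with a matched hairpin and enough reads, and miR-92a ranked 5th among them. Tails of 2 nts were the most frequent, on 48.0% ± 4.29 of reads, against 14.4% ± 1.92 for tails of 1 nt. Tails of 3 or 4 nts were on 2.94% ± 0.666. These shares leave out reads filed under other species, among them 1286 reads with the tail AAT. Nearly all tails began with A, which was the case on 62.1% ± 3.29 of reads, and a tail beginning with T was found on 2.41% ± 0.337.

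Other members carried fewer tails. For miR-25, despite its shared seed, the share was 18.4% ± 3.31 (SD, n = 9), and most of its tails were 1 nt long. In miR-93 it was 15.3% ± 2.99, and in miR-19b 10.6% ± 2.60. miR-17 and miR-20a, with 187 and 157 aligned reads in all, had 25.3% ± 12.2 and 20.4% ± 9.64. These 2 members had the fewest reads and the widest spread of the members shown.

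**Figure D2:**
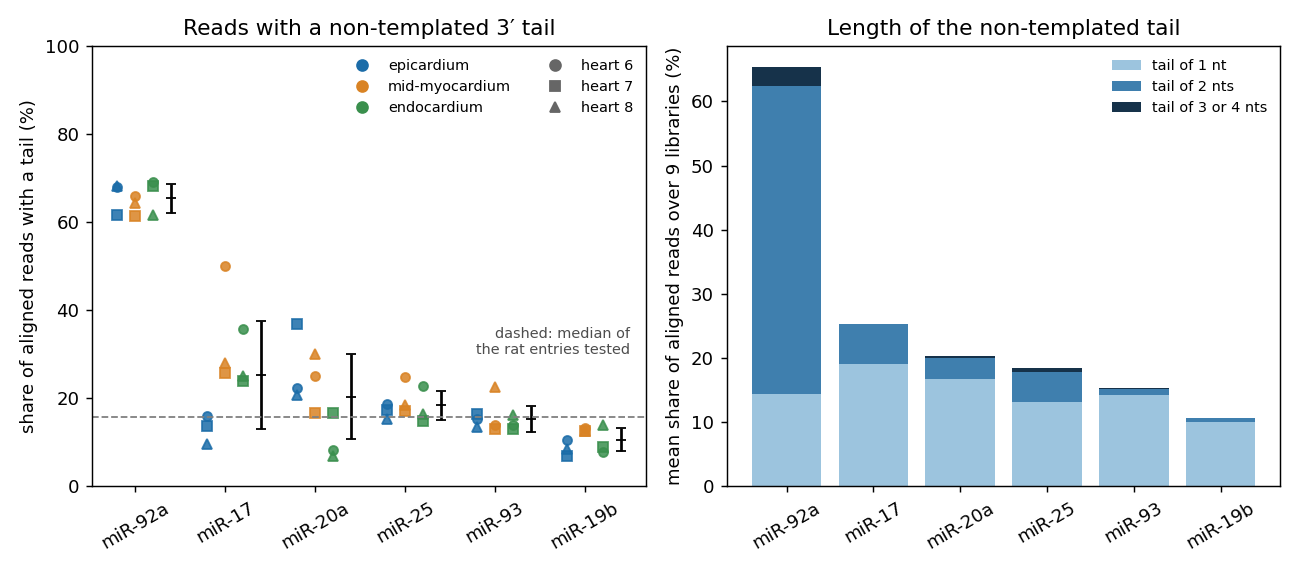
Share of aligned reads (%) with a non-templated 3′ tail in each library (left; colour gives the layer, symbol the heart, black bars the mean ± SD over 9 libraries, dashed line the median over 103 rat entries) and the mean share by tail length (right). miR-92a lies at 61.3 to 69.0% in every library, mostly as tails of 2 nts, while the other 5 members average 10.6 to 25.3%.

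The 2 hairpins of miR-92a differ in the nt after the mature sequence, where the chromosome 15 hairpin goes on with U and the X hairpin with A. A T followed the mature sequence in 93.1% ± 0.811 of aligned reads (SD, n = 9) and an A in 3.61% ± 0.711. The ratio of the former to the latter was 26.7 ± 5.06, with 19.1 and 34.1 at the extremes. Either nt can also be a tail on a mature sequence from the other gene, and reads that end at or before the mature end fit both, so these shares do not give the part of each gene. For miR-17, 67 of 226 reads carried the chromosome 15 name alone and 3 the X name alone, and for miR-19b 394 of 396 reads fitted either gene.

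The 3′ end was also trimmed in several members. The most common read of miR-93 lacked the last 2 nts of the mature sequence, and that of miR-19b lacked the last nt.
miR-93 read: caaagtgctgttcgtgcaggt
miR-19b read: tgtgcaaatccatgcaaaactg
These forms held 38.0% ± 4.37 of miR-93 reads and 65.4% ± 8.47 of miR-19b reads (SD, n = 9), whereas the exact mature sequences held 26.7% ± 1.70 and 14.2% ± 4.45 of reads outside the * strand. In miR-17, miR-20a and miR-25 the mature sequence was the most common read. Shifted 5′ ends, which would change the seed, were found on 1.10% of aligned miR-92a reads, 1.03% of miR-25 reads and 1.45% of miR-93 reads. Among the members with few reads they were found on 8 of 190 aligned reads of miR-17 (4.21%), 3 of 25 of miR-19a and 1 of 395 of miR-19b, and on 0 of 159 of miR-20a, 0 of 11 of miR-18a and 0 of 212 of miR-106b-5p.

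In miR-106b the arm named as minor prevailed. Aligned to both arms, 71.7% of its reads came from the 3p arm, and the 3p arm was the higher in 9 of 9 libraries. Its share ran from 53.7% in mid-myocardium of heart 8 (95% Wilson interval 44.9 to 62.4) to 89.4% in endocardium of heart 7 (83.3 to 93.5). As filed by name, the * strand had 68.0% ± 10.3 of reads (SD, n = 9), rank 5 of 95 entries, where the median entry had 0.979%. miR-25 and miR-93, cut from the same transcript, had 0.466% and 1.12% of their reads on the minor arm.

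Reads of miR-106b-3p had 2 main 5′ ends, which are shown because they give different seeds, in capitals.
3p read: cCGCACTGtgggtacttgct
3p read with 2 extra nts: tACCGCACtgtgggtacttgct
The first has the 5′ end of the RefSeq mature arm, chr12:22157062-22157083, which 74.4% ± 7.04 of 3p reads shared (SD, n = 9). A 5′ end 2 nts earlier was found on 23.1% ± 6.68 of 3p reads, between 12.5 and 36.8% in single libraries. The minor arm was also read for miR-17, with 34 of 224 placed reads, and for miR-18a, where it had most of the few reads, 17 of 28, while miR-19b had 0 of 395, which allows a share of up to 0.759%.

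Levels across the layers were compared by limma on log2(RPMM + 1), which called no member. It called 0 of 228 entries and strands in each of the 3 comparisons (0%), 9 of which belong to the clusters (miR-18a, miR-19a and most minor arms had too few reads to be tested). At an unadjusted p under 0.05 it gave 13 entries (5.7%) between endocardium and epicardium, 13 (5.7%) between mid-myocardium and epicardium and 8 (3.51%) between endocardium and mid-myocardium. Among the 9 member entries these numbered 0, 1 and 2. Layers did not overlap for 1 of the 9 between endocardium and epicardium, 3 between mid-myocardium and epicardium and 1 between endocardium and mid-myocardium, against 9.65%, 13.2% and 9.65% of all 228. The 3 were miR-19b, miR-106b and miR-25*, and miR-25* had only 2, 5 and 8 reads in mid-myocardium of hearts 6, 7 and 8. edgeR and DESeq2 called 0 entries after adjustment as well, whereas Baggerley's test called miR-92a, as given with that member.

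miR-19b was higher in mid-myocardium than in epicardium in every heart. Its level was 40.4, 37.6 and 40.8 RPMM in epicardium of hearts 6, 7 and 8, 52.8, 86.3 and 85.5 RPMM in mid-myocardium, and 54.8, 32.2 and 47.4 RPMM in endocardium. The 3 mid-myocardial libraries lay above the 3 epicardial ones, as was the case in one or the other direction for 13.2% of all 228 entries. The log2 fold change was 0.87 ± 0.28 (SE), with an unadjusted p of 0.0124 and an adjusted p of 0.706 by limma, so the difference was not called. Endocardium against mid-myocardium gave -0.73 ± 0.28, with an adjusted p of 0.887. The fibroblast markers also did not overlap between these layers, with sums of 2666 to 2861 RPMM in mid-myocardium against 1517 to 2300 RPMM in epicardium, and their part in the result was not tested.

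Neither arm of miR-106b was called in any comparison of layers by limma. miR-106b-5p was read at 21.3, 33.7 and 20.4 RPMM in epicardium of hearts 6, 7 and 8, 38.7, 38.5 and 53.2 RPMM in mid-myocardium, and 25.3, 10.5 and 23.7 RPMM in endocardium. Its mid-myocardial libraries lay above all of the others, and with both arms summed miR-106b no longer separated endocardium from mid-myocardium. Of all 228 entries 13.2% did not overlap between mid-myocardium and epicardium, and 9.65% between endocardium and mid-myocardium, in either direction. Between endocardium and mid-myocardium the entry without the * strand had a log2 fold change of -1.07 ± 0.33 (SE), with an unadjusted p of 0.00957 and an adjusted p of 0.887 by limma. miR-106b-3p was at 71.3, 66.2 and 56.9 RPMM in epicardium, 84.5, 63.7 and 61.7 RPMM in mid-myocardium, and 80.1, 88.9 and 59.2 RPMM in endocardium, and its layers overlapped. The * strand gave 0.12 ± 0.26 for the same comparison. A test of the share of the * strand across the layers, by limma's F test on log2 odds, gave an adjusted p of 0.871. The depth was low here, with 11 to 56 reads of the 5p arm per library. In mid-myocardium cardiac muscle markers summed to 105986 to 142808 RPMM, without overlap against 61844 to 103895 RPMM in endocardium. They did overlap with epicardium, at 54314 to 107511 RPMM. Most of these sums came from miR-133a, with a mean of 89938 RPMM over the 9 libraries. Fibroblast markers lay apart between mid-myocardium and epicardium, as given with miR-19b, and the part of either list was not tested.

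**Figure D3:**
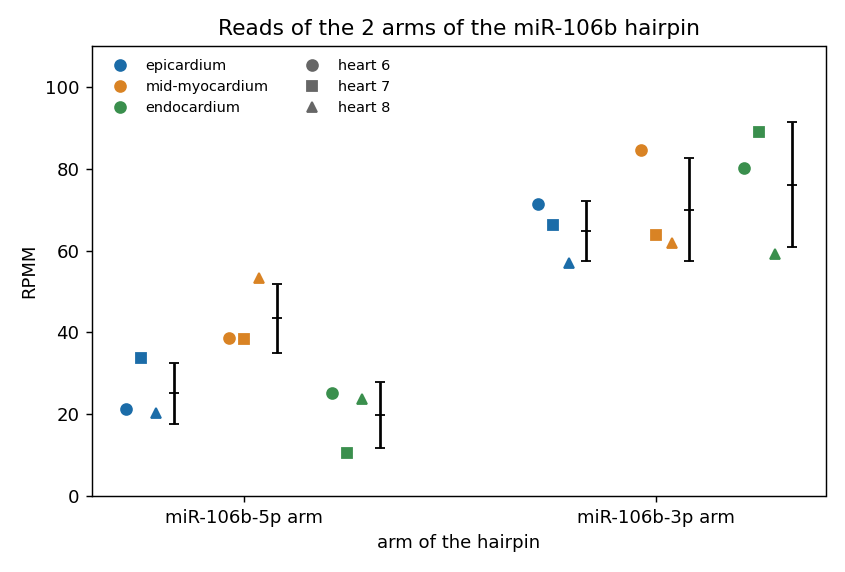
Level (RPMM) of the 5p and 3p arms of miR-106b in each library, by layer (colour) and heart (symbol), with black bars for the mean ± SD of the 3 libraries of a layer. The mid-myocardial libraries of the 5p arm, at 38.5 to 53.2 RPMM, lie above the other layers, whereas the layers of the 3p arm overlap. Of all 228 entries 13.2% did not overlap between mid-myocardium and epicardium, and 9.65% between endocardium and mid-myocardium.

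miR-25 was higher in endocardium than in epicardium without overlap, the lowest endocardial library being at 1564 RPMM and the highest epicardial one at 1447 RPMM. Of all 228 entries 9.65% did not overlap between these layers in either direction. Its log2 fold change was 0.32 ± 0.23 (SE), with an adjusted p of 0.989 by limma, and the difference was not called. miR-92a overlapped between layers, with means of 10151 ± 1596 RPMM in epicardium, 9452 ± 1571 RPMM in mid-myocardium and 11299 ± 1093 RPMM in endocardium (SD, n = 3). The log2 fold change of endocardium against epicardium was 0.16 ± 0.23, with an adjusted p of 0.989 by limma. Baggerley's test, the test on proportions that the study used, was computed anew here. It gave miR-92a adjusted p-values of 0.0128 for endocardium against epicardium, 0.0406 for mid-myocardium against epicardium and 0.00129 for endocardium against mid-myocardium. For miR-92a its variance fell to the lower limit in every layer, which is the counting error of the pooled reads. These p-values therefore leave out the spread between hearts given by the SDs above, and show no difference between layers beyond it. The 3 red cell markers summed to 148707 to 228889 RPMM in endocardium and 111952 to 162812 RPMM in epicardium, nearly all of it miR-486, which muscle also has. Without it, miR-451 and miR-144 summed to 602 to 898 RPMM in endocardium and 459 to 1058 RPMM in epicardium, which overlapped, and their part in the levels of miR-25 and miR-92a was not tested.

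For miR-17, miR-93 and miR-20a no comparison of layers was called. miR-17 averaged 30.6 ± 5.31, 37.3 ± 7.28 and 25.2 ± 3.79 RPMM in epicardium, mid-myocardium and endocardium (SD, n = 3), and miR-93 averaged 265 ± 56.3, 327 ± 53.2 and 320 ± 49.8 RPMM. For miR-20a the layers averaged 20.7 ± 8.79, 21.0 ± 7.37 and 22.8 ± 13.4 RPMM. The smallest adjusted p of these 3 miRNAs by limma was 0.854.

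**Figure D4:**
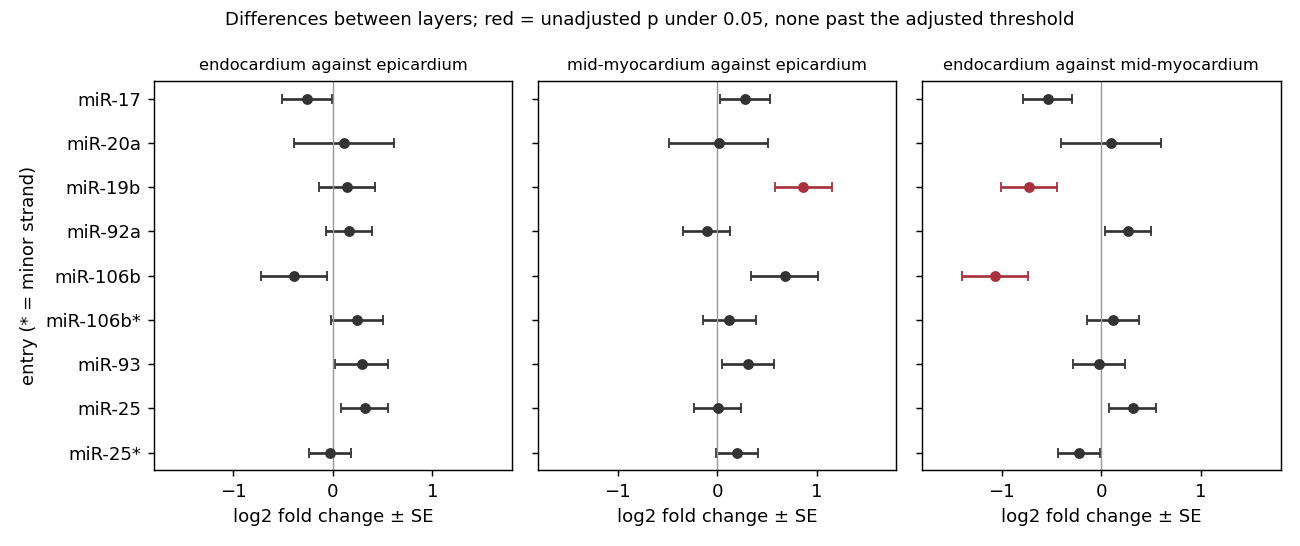
Log2 fold change ± SE of the 9 member entries tested in the 3 comparisons of layers (limma on log2(RPMM + 1); * marks the arm named as minor; red marks an unadjusted p under 0.05). Only miR-19b in mid-myocardium against epicardium, and miR-19b and miR-106b in endocardium against mid-myocardium, are red, and none passed the adjusted threshold.

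Between the animals, miR-20a lay highest in heart 8. Its level there was 26.8, 29.4 and 38.1 RPMM in epicardium, mid-myocardium and endocardium, against 10.6, 17.6 and 16.9 RPMM in heart 6 and 24.7, 15.9 and 13.3 RPMM in heart 7. The 3 libraries of heart 8 lay above the other 6. Of the 228 entries, 2.63% lay apart in either direction for heart 8, 10.1% for heart 6 and 1.32% for heart 7. The depth was low, with 5 reads of miR-20a in mid-myocardium of heart 6. limma's F test with layer as a covariate called 0 of 228 entries after adjustment (0%) and 28 (12.3%) at an unadjusted p under 0.05. edgeR called 7 entries and DESeq2 10, none of them a member. For miR-20a, the only member among the 28, the unadjusted p was 0.0204 and the adjusted p 0.239.

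No share of read forms was called across the layers for any member tested. The exact mature share was tested for miR-17, miR-19b, miR-92a, miR-106b, miR-93 and miR-25, and the 5′ end share for these without miR-17. The tail share was tested for miR-19b, miR-92a, miR-93 and miR-25, and the * strand share for miR-92a, miR-106b, miR-93 and miR-25. limma's F test on log2 odds called 0 of 125 entries for the exact mature share (0%), 0 of 118 for the 5′ end share (0%) and 0 of 103 for the tail share (0%), with 6 (4.8%), 4 (3.39%) and 1 (0.971%) entries at an unadjusted p under 0.05. For the share of the * strand 0 of 95 entries were called (0%), with 2 (2.11%) at an unadjusted p under 0.05. Of the members only the exact mature share of miR-106b was below that limit. Its unadjusted p by limma's F test was 0.0349 and its adjusted p 0.727. Between the hearts the tail share was called for 6 of 103 entries (5.83%) and the * strand share for 1 of 95 (1.05%), none of them a member. Nearest was miR-25, whose tailed share was 18.7, 24.8 and 22.7% in epicardium, mid-myocardium and endocardium of heart 6, 17.3, 17.1 and 14.9% in heart 7 and 15.3, 18.4 and 16.4% in heart 8. For miR-25 the adjusted p by limma's F test was 0.185, and epicardium of heart 6 (18.7%) was close to mid-myocardium of heart 8 (18.4%).

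Of the 7 related entries outside the clusters, 4 had reads. miR-363 of the X cluster averaged 15.7 ± 6.52 RPMM (SD, n = 9), with 20.2 ± 7.58 RPMM in epicardium, 10.7 ± 1.54 in mid-myocardium and 16.1 ± 6.59 in endocardium. miR-92b and miR-32, further relatives of miR-25 and miR-92a, averaged 8.99 ± 3.54 and 4.85 ± 2.47 RPMM. miR-20b had 5 reads. miR-106a, miR-18b and miR-367 had none under a rat name, which sets no limit on their genes, since the mature 5p sequence of the RefSeq gene Mir106a is that of miR-17 and its reads are filed there.

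Over the 9 libraries, the entries whose log2(RPMM + 1) was most like the mean of the miR-17~92 members were miR-30e, miR-301a and miR-30a, with Pearson's r of 0.867, 0.825 and 0.781. For miR-106b~25 they were miR-201, miR-199a and miR-451, with r of 0.909, 0.891 and 0.849. These are descriptions over 9 points from 3 hearts among 120 entries, whose 95th percentile of r was 0.691 and 0.780 respectively. The points share library totals, and miR-199a and miR-451 were among the markers of fibroblasts and red cells. The mean of miR-17~92 included miR-18a and miR-19a, which had under 10 reads per library.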

How the data were processed

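Small RNA of 3 layers of 3 rat left ventricles was extracted (miRNeasy) and made into TruSeq libraries by the authors, who trimmed and annotated the reads against miRBase v18 with CLC Genomics Workbench v4.0, allowing up to 2 mismatches and 3 added or removed nts at either end. The authors deposited each annotated sequence as RPM (RPMM) over the annotated reads of the library, and the counts of unannotated sequences as whole reads. A deposited table of grouped values was not used. Whole reads were recovered from 100% of the values above 0 (tolerance 0.05 reads). Without molecular identifiers, amplified reads do not stand for separate molecules, so the Wilson intervals (95%) and the limits set by 3 reads cover counting error only.

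The members and lists were chosen with earlier results of these data known. Reads of an entry were summed over its forms, with the * strand apart. Layers and hearts were taken from the sample labels. limma (lmFit, eBayes) was fitted to log2(RPMM + 1) of all rat entries and strands that reached 10 reads in some library, using all 9 libraries. Adjusted p-values (Benjamini-Hochberg) under 0.05 were called. A fold change on this scale understates that of low entries. For hearts, limma's F test was run with layer as covariate. Shares of forms were tested as log2 odds with 0.5 added to both counts, for entries with at least 10 reads in every library. The tests of tails and of the * strand, and those of shares between hearts, were added after seeing the data, as were the alignment of miR-106b reads to both arms, the sums by seed over the arm that has it, the red cell sum without miR-486 and the counting of entries and strands apart where layers or hearts did not overlap. Libraries of a group came from separate hearts. The heart number pairs the layers, since each heart gave all 3: deviations from the layer means correlated at a mean r of 0.208 within a heart and -0.102 between hearts, over 156 entries.

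Sequences were aligned to the RefSeq (GRCr8) mature miRNA with a 5′ offset of up to 3 nts and 2 mismatches, and 3′ tails of up to 4 nts were called against the RefSeq hairpins. No hairpin of miR-106b was used here. The fits and the alignment were tested on simulated data. All members and their relatives were named, with the 3 most like entries of each cluster. Alternatives covered TMM, DESeq2 size factors and tests, edgeR, Baggerley's test, filters, pseudocounts, read classes, replicate block and each library left out. R 4.3.3, limma 3.58.1, edgeR 4.0.16, DESeq2 1.42.0 and Python 3.11.15 (pandas 2.3.3, numpy 2.4.6, statsmodels 0.14.6) were used.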

Additional observations from a re-analysis of the deposited data

Results flagged for a closer look

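Reads of miR-92a were also found outside the rat entries. Under miR-92a names of other species, 2753 reads were filed over the 9 libraries, at 356 ± 77.0 RPMM (SD, n = 9), well above 3 reads, and 98.1% of them under zebrafish. Of these reads 79.9% began with the whole rat mature sequence. The most common, with 1286 reads, is shown with the nts after the templated end in capitals.
read: tattgcacttgtcccggcctgtAAT
With these reads added, the mean tailed share of miR-92a was 66.3% ± 3.23 instead of 65.4% and its level 10656 ± 1539 RPMM. For the other 8 members the entries of other species held at most 3 reads each. Among the unannotated sequences 0 contained the first 16 nts of any member.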

How the results depend on the processing

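No member passed the adjusted threshold in a comparison of layers or hearts under limma, edgeR or DESeq2 with any normalization, filter, pseudocount or read class tried, nor with any library left out, and heart as replicate block changed no call (0 entries in each comparison of layers). Of 578 recomputed log2 fold changes of members between layers, 540 kept direction and side of the threshold. Baggerley's test called 3 entries between endocardium and epicardium, 2 between mid-myocardium and epicardium and 14 between endocardium and mid-myocardium, miR-92a among them each time, with log2 fold changes of 0.16, -0.15 and 0.31. For miR-92a these calls rest on the counting error of pooled reads and leave out the spread between hearts, as given with that member. Between hearts, 1 entry was called with DESeq2 size factors, 4 with at least 10 reads in every library, 5 with a pseudocount of 10, 7 with edgeR, 10 with DESeq2 and 3 with exact mature reads. For the exact mature share across layers 1 entry was called with at least 50 reads in every library.

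With each library left out in turn, 0 to 1 entries were called between endocardium and epicardium (1 without endocardium of heart 7), 0 to 1 between endocardium and mid-myocardium (1 without the same library), 0 to 3 between hearts (1 without epicardium of heart 8 or mid-myocardium of heart 6 or 7, 3 without mid-myocardium of heart 8) and 0 to 1 for the exact mature share (1 without mid-myocardium or endocardium of heart 7).

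No difference of a member was called by limma, and the reversed ones had main log2 fold changes of at most 0.3931 in size. The largest was -0.39 for miR-106b in endocardium against epicardium. In mid-myocardium against epicardium, TMM gave -0.0331 for miR-20a and -0.0472 for miR-25, DESeq2 size factors gave -0.0056 and -0.0175, a pseudocount of 10 gave -0.0069 for miR-20a, edgeR and DESeq2 gave -0.0404 and -0.0116 for miR-25, and exact mature reads gave -0.14 for miR-17 and -0.12 for miR-25. Exact mature reads gave -8e-04 for miR-19b and 0.0498 for miR-106b in endocardium against epicardium, and 0.0944 for miR-93 in endocardium against mid-myocardium. Baggerley's test gave 0.03 for miR-25* in endocardium against epicardium and -0.0196 for miR-20a in endocardium against mid-myocardium. With a library left out, endocardium against epicardium ran from -0.33 to 0.43 for miR-20a, -0.10 to 0.0439 for miR-25* and -0.0187 to 0.36 for miR-19b. Mid-myocardium against epicardium ran from -0.43 to 0.27 for miR-20a, -0.15 to 0.10 for miR-25, -0.22 to 0.0403 for miR-92a and -0.0461 to 0.22 for miR-106b*. Endocardium against mid-myocardium ran from -0.35 to 0.42 for miR-20a, -0.18 to 0.11 for miR-93 and -0.0141 to 0.31 for miR-106b*.

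With both strands of an entry summed, a count made first and replaced after its values were seen, 9.25%, 12.7% and 5.78% of 173 entries did not overlap between endocardium and epicardium, mid-myocardium and epicardium, and endocardium and mid-myocardium, instead of 9.65%, 13.2% and 9.65%, and the members that did not were miR-25, then miR-19b and miR-106b, then none.

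Leaving out reads as close to another member or relative took 16.4% of miR-17 reads and 8.55% of miR-106b reads outside the * strand. It took at most 0.629% of any other member's reads, and moved no level by more than its SD. For miR-17 it took 37 of 226 reads, and 34 miR-17 reads were placed on the minor arm. For miR-106b it took 20 of 234 reads, and only 212 of those 234 aligned to the 5p arm. The reads left out can thus be largely those of the other arm, which was not tested. The 16.4% and 8.55% therefore do not give the part of reads that cannot be told from another member. miR-18a and miR-19a, with under 10 reads per library, could not be tested, and the members with 5 to 90 reads per library are limited by depth. No share of miR-20a was tested, and no tail share of miR-17 or miR-106b.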
